A study of Schizosaccharomyces pombe with 6 samples.

Results

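The 7 genes described here act in mating by M cells of the fission yeast Schizosaccharomyces pombe. These genes were chosen by name from the 6986 genes of the count table. They are the M-factor precursor genes mfm1, mfm2 and mfm3, the M-factor exporter gene mam1, the P-factor receptor gene mam2, the adhesin gene mam3 and the protease gene sxa2. Poly(A)+ RNA was sequenced in 3 libraries of an h+ strain carrying rad24∆::NatMX (rad24 deletion) and 3 libraries of a wild type h+ strain. Both strains were in vegetative growth, in log phase in YES, a rich medium, at 30 °C. The gene removed, rad24, encodes a 14-3-3 protein, which binds phosphorylated partners. The labels do not say that the libraries of a genotype came from separate cultures, so a p-value here covers only how much these libraries vary, which may be technical.

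Fission yeast mates between P cells (h+) and M cells (h-). M cells secrete M-factor, a short peptide that is farnesylated and methylated before an ABC transporter, Mam1, carries it out of the cell, and they sense P-factor through the G-protein coupled receptor Mam2. Mam3 is a cell surface protein by which M cells stick to P cells, and Sxa2 is a carboxypeptidase that degrades P-factor. M-specific transcription is known to need the M-specific HMG-box factor Mc of the mating type locus and Ste11, the master regulator of sexual development, which acts under nitrogen starvation and pheromone signals. Both strains sequenced here are labelled h+, the P mating type. By these labels, the M-cell genes belong to the program of the mating type that is not theirs.

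The 3 precursor genes end in the same peptide but differ elsewhere, which matters for telling their reads apart. Their spliced coding sequences are printed from the RefSeq assembly ASM294v3, read 5′ to 3′ on the coding strand. The capitals mark the codons of the longest run of residues that all 3 precursors share, 14 residues up to the last codon before the stop. The mature pheromone is cut from that end.
mfm1 (chrI:4917099-4917298, + strand, spliced over 1 intron of 71 bases): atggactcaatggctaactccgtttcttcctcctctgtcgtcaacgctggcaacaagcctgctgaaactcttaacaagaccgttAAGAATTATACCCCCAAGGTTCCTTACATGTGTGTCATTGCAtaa
mfm2 (chrI:2913008-2913184, - strand, spliced over 1 intron of 42 bases): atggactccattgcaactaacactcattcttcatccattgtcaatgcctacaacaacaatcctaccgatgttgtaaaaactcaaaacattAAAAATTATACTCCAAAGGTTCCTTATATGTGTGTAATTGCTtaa
mfm3 (chrII:700364-700556, + strand, spliced over 1 intron of 67 bases): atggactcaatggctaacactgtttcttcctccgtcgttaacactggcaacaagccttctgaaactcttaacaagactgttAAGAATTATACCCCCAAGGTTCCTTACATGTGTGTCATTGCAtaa

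The mfm1 and mfm3 coding sequences were the close pair. They were identical at 93.0% of aligned positions, and their longest shared run was 48 bases. The mfm2 sequence was identical to mfm1 at 70.9% and to mfm3 at 71.5% of aligned positions, with a longest shared run of 11 bases in each pair. In the capitals mfm1 and mfm3 carry the same bases, while mfm2 uses other codons for the same residues. The sources used here do not give the read length, so how many reads of mfm1 and mfm3 were left out as matching both genes is not known.

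The libraries held 19396868 to 21730112 counts in the rad24 deletion and 11539278 to 15282140 in wild type, so every mutant library was deeper. The deleted gene matched the labels, with 15 to 39 counts in the mutant libraries and 18442 to 22565 in the wild type libraries. Across the genome 78.3% of the 6084 tested genes differed in edgeR's quasi-likelihood test with Benjamini-Hochberg adjustment (threshold 0.05). The mutant was higher at 40.9% and lower at 37.4% of them. A call on its own was therefore common, and only 12.8% of tested genes combined a call with a change of at least 2-fold. Levels are given as CPM (counts scaled to library size with TMM factors), and every fold or log2 ratio is the rad24 deletion over wild type.

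The M-cell genes did not move as 1 group in the mutant. The pheromone precursor genes mfm1 and mfm2 rose more than 5-fold, the third precursor gene mfm3 (by a weak call), the adhesin gene mam3 and the protease gene sxa2 rose less, the exporter gene mam1 fell slightly, and the receptor gene mam2 fell 8.20-fold. All 7 genes passed the filter on low counts. Of the 7, 5 were called higher and 2 lower, and 3 (mfm1, mfm2 and mam2) changed at least 2-fold. In all 7 the 3 mutant libraries lay on one side of the 3 wild type libraries, which was also true of 80.0% of all tested genes. The median log2 ratio was 0.70 over the 7 genes and 0.02 over all tested genes. In RNA of a bulk culture, a change in the number of cells making a transcript and a change in RNA per cell cannot be told apart.

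**Figure D1:**
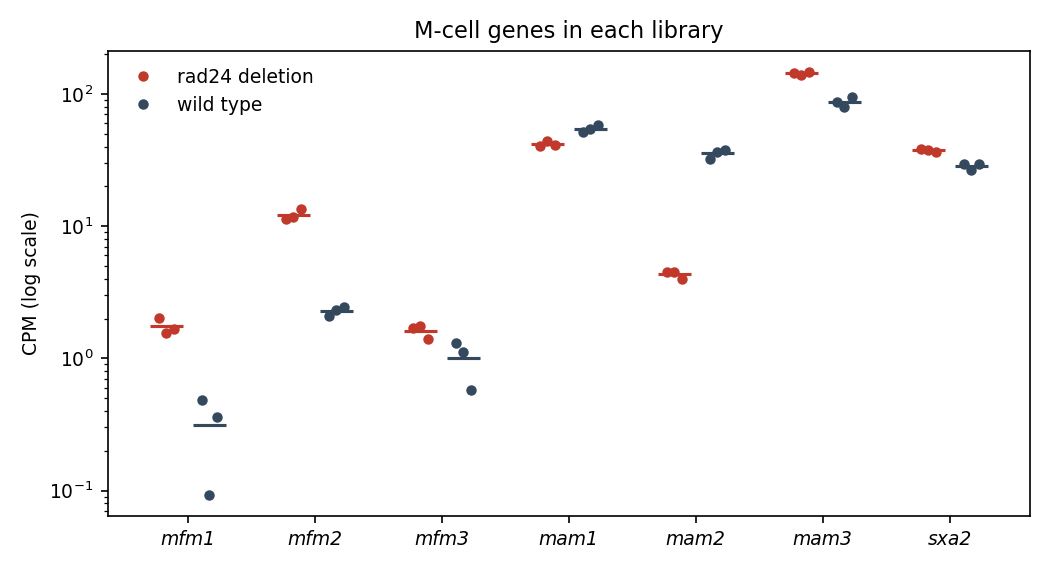
CPM of each M-cell gene on a log axis, with 1 point per library, 3 libraries of the rad24 deletion in red and 3 of wild type in dark blue, and a line at each group mean. The red points lie above the blue points for mfm1, mfm2, mfm3, mam3 and sxa2 and below them for mam1 and mam2, and mam2 (means of 4.31 CPM in the mutant and 35.5 CPM in wild type) has the widest gap between its means.

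M-factor precursor mRNA was scarce in both strains and rose in the mutant. The gene mfm2 (SPAC513.03) had 258, 241 and 291 counts in the rad24 deletion libraries, against 30, 25 and 34 in the wild type libraries. Its mean was 12.2 ± 1.17 CPM in the mutant and 2.28 ± 0.185 CPM in wild type (SD, n = 3 each), a log2 ratio of 2.42 (SE 0.14, edgeR adjusted p = 2.77e-09). The lowest mutant library, at 11.3 CPM, stood far above the highest wild type library, at 2.43 CPM.

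The gene mfm1 (SPAPB8E5.05) had 46, 32 and 36 counts in the mutant libraries, against 7, 1 and 5 in the wild type libraries. The groups did not overlap, but wild type replicate 2 rests on a single count. Mean levels were 1.75 ± 0.236 CPM in the mutant and 0.312 ± 0.200 CPM in wild type (SD, n = 3 each), with a log2 ratio of 2.38 (SE 0.36, edgeR adjusted p = 3.19e-05). Its rise was of the same order as that of mfm2, from a level some way below it.

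The gene mfm3 (SPBPJ4664.03) had 39, 36 and 30 counts in the mutant libraries, against 19, 12 and 8 in the wild type libraries. In CPM the gap between the groups was narrow, from 1.40 in the lowest mutant library to 1.31 in the highest wild type library. Means were 1.62 ± 0.198 CPM in the mutant and 1.00 ± 0.385 CPM in wild type (SD, n = 3 each), with a log2 ratio of 0.70 (SE 0.28, edgeR adjusted p = 0.0358). This call is weak: DESeq2 gave 0.68 with an adjusted p of 0.0867, and leaving out wild type replicate 2 (edgeR adjusted p = 0.0503), wild type replicate 3 (0.215), mutant replicate 1 (0.0881) or mutant replicate 2 (0.0868) ended the call. In the authors' deposited table mfm3 had a log2 ratio of 0.70 with an SE of 0.46 and an adjusted p of 0.188. In the ASM294v3 annotation the whole of mfm3 lies inside mfm3-antisense-1, an RNA gene of the opposite strand. That gene averaged 28.9 ± 1.36 CPM in the mutant and 28.8 ± 1.49 CPM in wild type (SD, n = 3 each; log2 ratio 0.01, edgeR adjusted p = 0.936). Whether reads were counted by strand is not stated in those sources either, so the reads of this pair may not have been told apart.

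**Figure D2:**
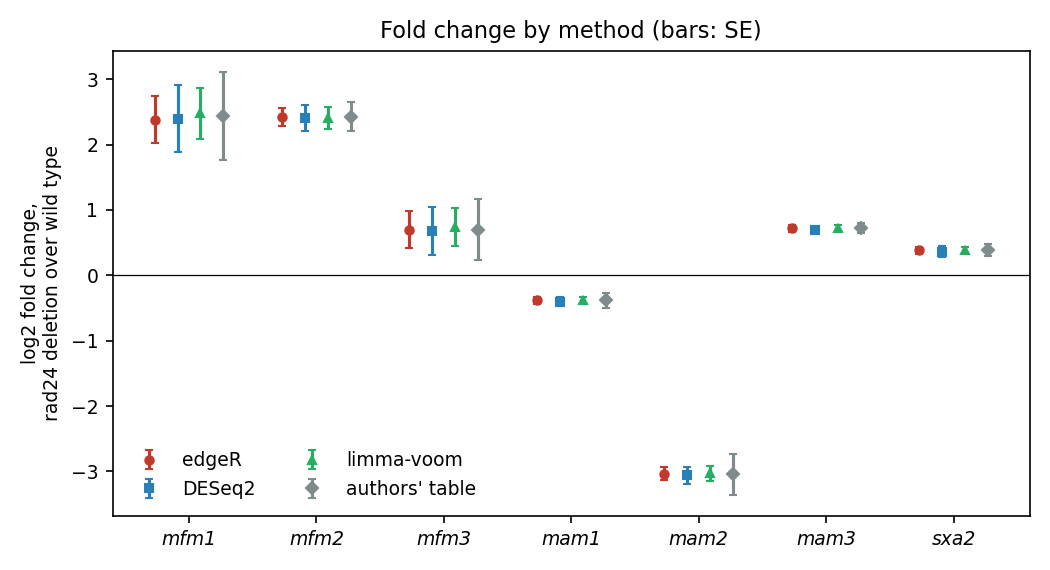
Log2 ratio of each M-cell gene, rad24 deletion over wild type, by edgeR, DESeq2, limma-voom and the authors' deposited table, with bars of 1 SE. The estimates of a gene lie close together, the bars from the authors' table are the longest for each gene, and mfm3 (edgeR 0.70 with SE 0.28, SE of 0.46 in the authors' table) has a long bar for its size.

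Summed over the 3 genes, precursor counts were 343, 309 and 357 in the mutant libraries, against 56, 38 and 47 in the wild type libraries. The summed level was 15.6 ± 0.888 CPM in the mutant and 3.595 ± 0.258 CPM in wild type (SD, n = 3 each), a ratio of 4.34. By raw counts mfm2 was the largest part of this sum in every library. Per kilobase of exon it led in all but wild type replicate 1, where mfm2 had 4.64 and mfm3 4.87 CPM per kb, and its mean share per kilobase was 73.1% in the mutant and 54.4% in wild type. Of raw counts, mfm2 gave 75.2%, 78.0% and 81.5% of the precursor counts in the mutant libraries, against 53.6%, 65.8% and 72.3% in wild type. The Wilson 95% intervals ran from 70.4% to 85.2% over the mutant libraries and from 40.7% to 83.1% over the wild type libraries, and like all intervals here they cover counting error only.

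The mfm3 share moved the other way, with 11.4%, 11.7% and 8.40% in the mutant libraries, against 33.9%, 31.6% and 17.0% in wild type. The groups did not overlap for mfm2 (difference of mean shares 14.3 points) or mfm3 (-17.0 points). Each had an exact permutation p of 0.1, two-sided, over n = 3 and 3 libraries, the smallest that 3 against 3 libraries allow. The mfm1 share overlapped between the groups, at 11.3% ± 1.85 in the mutant and 8.59% ± 5.24 in wild type (SD, n = 3 each; exact permutation p = 0.6). The difference in the mfm2 share was 9.18 points without wild type replicate 1, and that in the mfm1 share was -0.285 points without wild type replicate 2. The shares of a library add up to the whole, so the mfm2 and mfm3 differences are not separate results. The mfm3 count was 0.0461 to 0.0620 of the mfm3-antisense-1 count in the mutant libraries and 0.0211 to 0.0441 in wild type. Whether reads of that overlapping gene entered the mfm3 share was not tested.

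**Figure D3:**
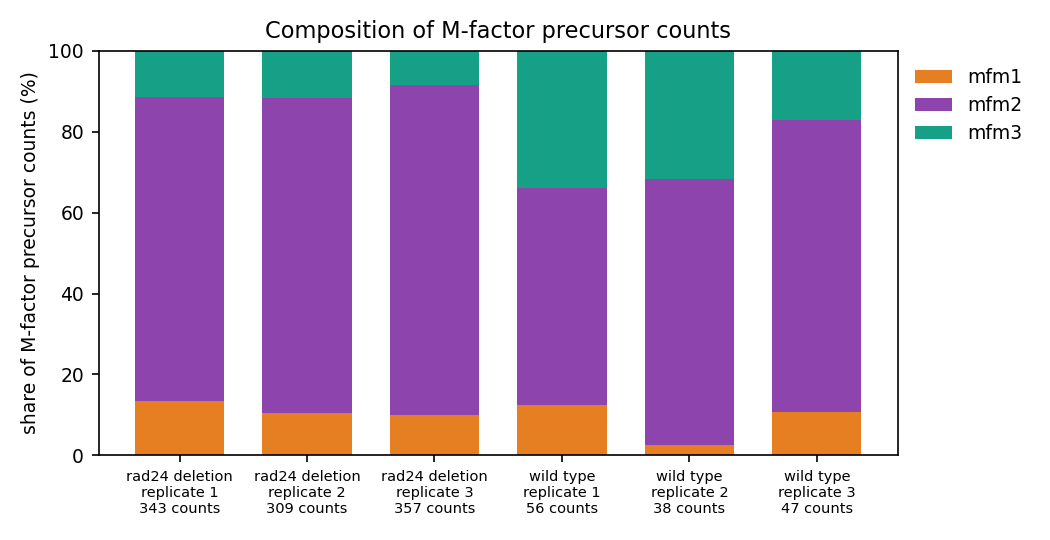
Stacked bars of the share of M-factor precursor counts from mfm1, mfm2 and mfm3 in each library, in percent, with the summed count of the library under each bar. The mfm2 part fills 75.2% to 81.5% of the 3 rad24 deletion bars and 53.6% to 72.3% of the 3 wild type bars, and the mfm3 part is smaller in each rad24 deletion bar than in any wild type bar.

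The exporter gene did not follow its cargo. The gene mam1 (SPBC25B2.02c; ASM294v3 chrII:2596405-2600486, - strand, 1 exon) had 40.3, 43.8 and 41.3 CPM in the mutant libraries, against 51.1, 54.3 and 58.1 CPM in the wild type libraries. The groups did not overlap, and mam1 fell by 0.38 on the log2 scale (SE 0.06, edgeR adjusted p = 2.58e-05). In each library the sum of precursor counts can be set against the mam1 count without any scaling between libraries. That ratio was 0.373, 0.345 and 0.403 in the mutant libraries, against 0.0758, 0.0653 and 0.0579 in wild type. The precursors thus gained on the exporter in the mutant. Though mam1 took more counts in all 6 libraries, its exon length is 4082 bases, against 447 for mfm2. Per kilobase of exon, mfm2 alone averaged 27.3 CPM in the mutant, above the 10.2 of mam1. In wild type mfm2 averaged 5.10 CPM per kb, below the 13.4 of mam1.

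Genes of M-factor maturation, from a list of 5, were all called higher, by small amounts, beside 40.9% called higher among all tested genes. They encode the farnesyltransferase subunits Cpp1 and Cwp1, the predicted CAAX proteases Rce1 and Ste24, and the methyltransferase Mam4, and most of them also serve other prenylated proteins. The largest rise was that of rce1, with 73.1 ± 0.386 CPM in the mutant and 49.3 ± 4.35 CPM in wild type (SD, n = 3 each; log2 ratio 0.56, SE 0.05, edgeR adjusted p = 3.56e-07). The smallest was that of ste24, with a log2 ratio of 0.15 (SE 0.03, edgeR adjusted p = 0.00116). The gene mam4, which takes its name from the M-cell genes, had a log2 ratio of 0.33 (SE 0.04, edgeR adjusted p = 6.98e-06). The median log2 ratio of the 5 was 0.33, a size like the median absolute log2 ratio of 0.34 over all tested genes.

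The receptor gene mam2 (SPAC11H11.04; ASM294v3 chrI:4780688-4781922, + strand, 1 exon) had the largest change among the 7 genes, and it was a fall. It had 102, 92 and 85 counts in the mutant libraries, against 463, 393 and 528 in the wild type libraries, although the mutant libraries were deeper. Its level was 4.31 ± 0.307 CPM in the mutant and 35.5 ± 3.06 CPM in wild type (SD, n = 3 each), a log2 ratio of -3.04 (SE 0.10, edgeR adjusted p = 4.61e-12). No mutant library came above 4.50 CPM and no wild type library below 32.0 CPM. In the authors' deposited table the log2 ratio was -3.04 with an SE of 0.31.

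The genes on both sides of mam2 did not share its fall. SPAC11H11.03c, upstream on the opposite strand, had 40.5 ± 1.52 CPM in the mutant and 40.2 ± 3.27 CPM in wild type (SD, n = 3 each; log2 ratio 0.02, SE 0.06, edgeR adjusted p = 0.774). The kinetochore gene fta6, downstream on the opposite strand, had 8.75 ± 1.07 CPM in the mutant and 8.67 ± 0.160 CPM in wild type (SD, n = 3 each; log2 ratio 0.01, SE 0.11, edgeR adjusted p = 0.927). Neither gene overlaps mam2 in the ASM294v3 annotation.

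The adhesin gene mam3 (SPAP11E10.02c; ASM294v3 chrI:1856833-1860689, - strand, 1 exon) was the most abundant of the 7 by CPM in both genotypes. Its libraries stood at 143, 140.0 and 147 CPM in the mutant, against 87.0, 79.8 and 94.1 CPM in wild type. The groups were well apart, with a log2 ratio of 0.72 (SE 0.05, edgeR adjusted p = 7.21e-09). The protease gene sxa2 (SPAC1296.03c; ASM294v3 chrI:712217-714449, - strand, 1 exon) had 38.4, 37.5 and 36.2 CPM in the mutant libraries, against 29.3, 26.8 and 29.6 CPM in wild type. The rise of sxa2 was 1.30-fold (log2 ratio 0.38, SE 0.06, edgeR adjusted p = 3.63e-05).

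Genes next to the other members were mixed. At mfm2, the gene SPAC513.02, which lies 218 bases downstream on the opposite strand, rose with it (16.5 ± 1.22 CPM in the mutant and 3.81 ± 0.886 CPM in wild type, SD, n = 3 each; log2 ratio 2.13, SE 0.14, edgeR adjusted p = 7.13e-09). At mfm1, the ribosomal protein gene rpl302, 33 bases downstream on the opposite strand, fell by 0.60 on the log2 scale (SE 0.06, edgeR adjusted p = 7.55e-07), while npc2, 1597 bases upstream, rose by 0.21 (SE 0.04, edgeR adjusted p = 0.000261). At mfm3, SPBPJ4664.02, 477 bases upstream on the same strand, rose by 0.51 (SE 0.04, edgeR adjusted p = 6.96e-08), not far from the 0.70 of mfm3, while cop1, 1130 bases downstream, was not called (-0.04, edgeR adjusted p = 0.330). At mam3, SPAC1399.01c, 2181 bases downstream, rose by 1.98 (SE 0.05, edgeR adjusted p = 2.16e-13), while SPAP11E10.01, whose end overlaps that of mam3 by 72 bases, had a log2 ratio of 0.16 (SE 0.05, edgeR adjusted p = 0.00684). At sxa2, the cytochrome c oxidase gene cox4, which overlaps its end by 138 bases, rose by 0.42 (SE 0.03, edgeR adjusted p = 5.95e-08), close to the 0.38 of sxa2. On either side of it, mug65 rose by 0.32 (edgeR adjusted p = 3.80e-05) and SPAC1296.01c fell by 0.18 on the log2 scale (edgeR adjusted p = 0.000166). At mam1, the end of the overlapping translation surveillance gene hbs1 shares 48 bases with it, and hbs1 fell by 0.25 on the log2 scale (SE 0.04, edgeR adjusted p = 5.93e-05), while the RNA gene SPNCRNA.1533, 303 bases upstream on the same strand, fell by 1.56 (SE 0.23, edgeR adjusted p = 2.45e-05). The next gene downstream, rpc25, was not called (-0.08, edgeR adjusted p = 0.1003). SPAC513.04 upstream of mfm2 had 1 count in each mutant library and 0 in each wild type library, and SPNCRNA.181 upstream of mam3 had none in all 6. In ASM294v3, 3 annotated genes overlap sxa2 and 2 overlap mam1, and only 1 at each was among the counted genes. How reads of the uncounted ones were assigned is not known.

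Levels of different genes were compared per kilobase of exon, with lengths from ASM294v3. In the mutant the order of mean levels was mam3 (37.2 ± 0.882 CPM per kb), mfm2 (27.3 ± 2.63), sxa2 (16.7 ± 0.497), mam1 (10.2 ± 0.447), mfm3 (6.01 ± 0.732), mfm1 (4.02 ± 0.541) and mam2 (3.49 ± 0.249, SD, n = 3 each). In wild type it was mam2 (28.7 ± 2.48 CPM per kb), mam3 (22.5 ± 1.85), mam1 (13.4 ± 0.859), sxa2 (12.8 ± 0.700), mfm2 (5.10 ± 0.414), mfm3 (3.71 ± 1.43) and mfm1 (0.715 ± 0.458, SD, n = 3 each). The libraries of mfm1 and mam2 overlapped in the mutant, and those of mam1 and sxa2 and of mfm2 and mfm3 overlapped in wild type, so these neighbours in the order are not told apart. The receptor gene thus stood last among the 7 by its mean in the mutant and first in wild type.

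Among 5106 protein-coding genes with a length, mam2 stood above 4.97% in the mutant and above 31.2% in wild type. The same measure for mfm2 was 27.2% in the mutant and 6.99% in wild type, and for mam3 it was 40.2% in the mutant and 24.0% in wild type. None of the 7 was above the median protein-coding gene in either genotype. The annotated transcript of mfm3 begins at its start codon, so its length may be short and its level per length too high.

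**Figure D4:**
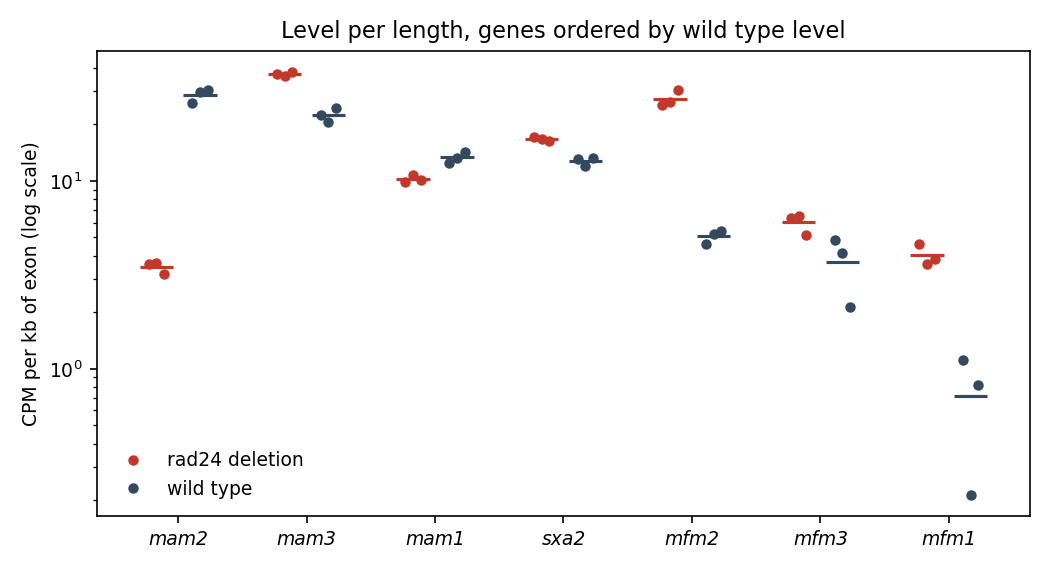
CPM per kilobase of exon on a log axis, with 1 point per library and a line at each group mean, genes ordered by wild type level, the rad24 deletion in red and wild type in dark blue. The receptor gene mam2 is the lowest by its mean in the mutant (3.49 CPM per kb) and the highest gene in wild type (28.7), while mfm2 has 27.3 in the mutant and 5.10 in wild type.

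The pheromone, receptor, adhesin and protease genes have P-cell counterparts, and the labels say that both strains are P cells. The P-factor gene map2 had 11461, 9105 and 8641 counts in the mutant libraries, against 74, 55 and 72 in wild type, and the aspartic protease gene sxa1 had 16969 to 19294 counts in the mutant, against 15031 to 20554 in wild type. Of the 6 genes in the P-cell list, map1, map2, map3 and map4 were called higher and sxa1 and the kexin gene krp1 lower, with a median log2 ratio of 1.92 over the 6. Among all tested genes 40.9% were called higher and 37.4% lower. The list joins genes of unlike level. Per kilobase of exon in wild type, sxa1 stood above 95.6% and krp1 above 89.7% of protein-coding genes, while map1, map2, map3 and map4 stood above 8.7% to 21.2%. Within each library the M-cell genes lost ground to their P-cell counterparts in 3 of 4 roles. The summed precursor counts were 0.0299 to 0.0413 of the map2 count in the mutant libraries, against 0.653 to 0.757 in wild type. The receptor ratio of mam2 to map3 was 0.0170 to 0.0185 in the mutant, against 0.7997 to 1.15 in wild type. The ratio of mam3 to the adhesin gene map4 was 0.386 to 0.438 in the mutant, against 1.64 to 1.86 in wild type. The protease ratio of sxa2 to sxa1 went the other way, at 0.0436 to 0.0454 in the mutant, against 0.0191 to 0.0210 in wild type. These ratios are free of the scaling between libraries, and they describe the libraries with no test. In wild type, mam3 had more counts than map4 in every library, and mam2 had 0.7997 to 1.15 of the map3 count. The wild type ratios of the adhesin and receptor roles thus did not set the P-cell gene clearly above the M-cell gene. In the pheromone role (0.653 to 0.757) and the protease role (0.0191 to 0.0210) the P-cell gene had more counts in every wild type library. The mating type of both strains rests on the labels, and it was not tested.

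**Figure D5:**
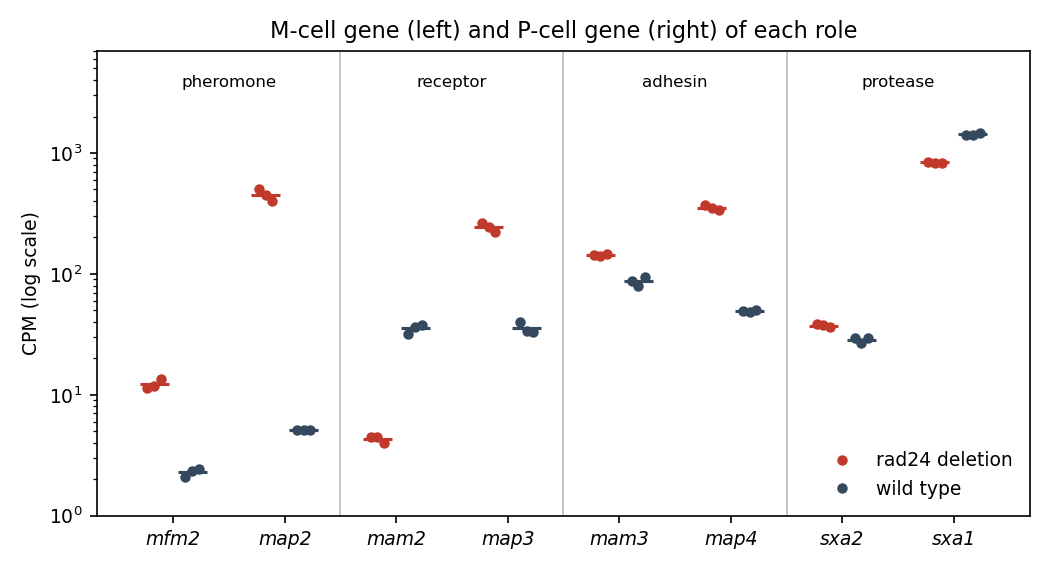
CPM on a log axis of an M-cell gene (left) and a P-cell gene (right) for the roles of pheromone, receptor, adhesin and protease, with 1 point per library and a line at each group mean, the rad24 deletion in red and wild type in dark blue. The receptor pair parts most visibly, with map3 at 243 CPM in the mutant and 35.6 CPM in wild type and mam2 at 4.31 CPM in the mutant and 35.5 CPM in wild type.

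The M-specific genes of the mating type locus, mat1-Mc, mat1-Mi, mat3-Mc and mat3-Mm, were at 0 counts in all 6 libraries. Copies of the M cassette stand at both mat1 and mat3 in the reference strain, and HTSeq by default leaves out reads that match several places, so these zeros do not show whether the genes were transcribed. A search by gene name found no P-specific gene of the locus, so the P label was not checked there. The gene mei3, which is induced when a cell holds both mating types, had 0.746, 1.08 and 1.21 CPM in the mutant libraries, against 0.554, 0.560 and 0.573 CPM in wild type (log2 ratio 0.83, SE 0.32, edgeR adjusted p = 0.0290). These values rest on 17 to 26 counts in the mutant libraries and 6 to 8 in wild type. The mei3 call was absent with DESeq2 and when any library other than mutant replicate 1 was left out, and mei3 was untested with a minimum of 50 counts. All 7 M-cell genes had at least 1 count in each library. A part of cells with M identity in these changes was not tested.

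Of 11 genes of pheromone signalling 7 were called higher, 1 lower and 3 were not called, beside 40.9% higher and 37.4% lower among all tested genes. The median log2 ratio was 0.38 in the list and 0.02 over all tested genes. The G-protein regulator gene rgs1 rose by 3.02 (SE 0.05, edgeR adjusted p = 1.69e-14), the Ras exchange factor gene ste6 by 1.92 (SE 0.05, edgeR adjusted p = 3.23e-13) and the MAP kinase gene spk1 by 1.69 (SE 0.06, edgeR adjusted p = 1.14e-11). The G-protein alpha subunit gene gpa1, which couples to the pheromone receptors, rose by 0.46 (SE 0.04, edgeR adjusted p = 1.39e-07), and the adaptor gene ste4 and the kinase genes byr2 and byr1 rose by 0.31 to 0.58. The kinase gene shk1 fell by 0.63 (SE 0.04, edgeR adjusted p = 3.74e-09). The 3 genes not called had log2 ratios of -0.02 to 0.08. Among them was ste11, with 361.6 CPM in the mutant and 365.3 CPM in wild type (log2 ratio -0.01, SE 0.03, edgeR adjusted p = 0.709). With upper quartile factors 9 of the 11 were called higher, and with library size only 10.

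Of 5 genes of cell fusion, 4 were called higher and 1 lower, beside 40.9% higher and 37.4% lower among all tested genes. Their median log2 ratio was 0.82. The claudin-like gene dni2 had 38.7 ± 3.37 CPM in the mutant and 3.58 ± 0.226 CPM in wild type (SD, n = 3 each; log2 ratio 3.44, SE 0.11, edgeR adjusted p = 4.48e-12). Its partner dni1 rose by 1.35, the formin gene fus1 by 0.82 and prm1 by 0.32, and the exomer gene cfr1 fell by 0.55.

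Ste11 is known to bind the TR box, so the 300 bases before each start codon were searched for its letters TTCTTTGTT and for the shorter core CTTTGTT, which lies within it, on both strands. The full box stood upstream of mfm1 and mfm3, 2 of 7 members, and in 2.29% of 5113 such windows of protein-coding genes. The core stood upstream of mfm1, mfm2, mfm3, mam1 and mam2, 5 of 7 members, and in 11.4% of all windows. The windows around each match are printed from ASM294v3 in the direction of transcription, with the match in capitals. The match of mfm1, mfm2, mfm3 and mam2 is on the other strand and appears as its reverse complement.
mfm1 (chrI:4916920-4916960, + strand, 154 bases before the start codon): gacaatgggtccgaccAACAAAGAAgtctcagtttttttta
mfm3 (chrII:700184-700224, + strand, 155 bases before the start codon): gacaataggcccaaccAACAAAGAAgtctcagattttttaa
mfm2 (chrI:2913305-2913345, - strand, 137 bases before the start codon): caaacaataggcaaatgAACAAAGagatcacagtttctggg
mam2 (chrI:4780541-4780581, + strand, 123 bases before the start codon): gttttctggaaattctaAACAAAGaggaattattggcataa
mam1 (chrII:2600616-2600656, - strand, 197 bases before the start codon): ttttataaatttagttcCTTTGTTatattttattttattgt
mam1 (chrII:2600530-2600570, - strand, 111 bases before the start codon): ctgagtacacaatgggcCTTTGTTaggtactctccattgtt

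The genes with a match had log2 ratios of both signs, and whether these sites bear on the changes was not tested. The printed windows of mfm1 and mfm3 are alike at most bases, so their matches are not independent. The full box stood upstream of mfm1, with a log2 ratio of 2.38, and of mfm3, with 0.70. The core stood upstream of mfm2, with 2.42, and also of mam1, with -0.38, and of mam2, with -3.04. No match was found before mam3 and sxa2, which says only that these letters are not in those windows.

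The tested gene with the profile nearest to each member over the 6 libraries was found by the Euclidean distance between centred log2 CPM values, with 0.5 CPM added. For mam2 it was mug133 (distance 0.233), with a log2 ratio of -2.85 from means of 7.95 CPM in the mutant and 57.8 CPM in wild type. For mfm2 it was SPCC965.14c (distance 0.246; 81.8 CPM in the mutant and 17.4 CPM in wild type). The nearest profiles of mam3, sxa2 and mam1 were those of sgf11, tgs1 and SPBC11B10.08, at distances of 0.0677, 0.0546 and 0.0804. Those of mfm1 and mfm3, whose counts are low, were ctt1 (distance 0.322, log2 ratio 1.41) and fzr3 (distance 0.233, log2 ratio 0.996). The added 0.5 CPM is above the wild type mean of mfm1 (0.312 CPM) and flattens its profile. The log2 ratio of ctt1 is thus well short of the 2.38 of mfm1.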

How the data were processed

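The submitters' processing notes name build ASM294v2 and the tools HTSeq 0.10.0, HISAT2 2.1.0, DESeq2 and SAMtools, with no order. The authors deposited raw counts per gene, and a table with log2 fold changes and SEs, p-values, a test score and a signal of mean normalized reads, per the file headers. Of 6987 count rows, 1 repeated identifier was dropped. Every row carried a gene identifier, and genes without a common name are given by their systematic identifier.

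Genes were tested in edgeR 4.0.16 (R 4.3.3) by the quasi-likelihood test with TMM factors and genotype as the only term. The filterByExpr minimum left 6084 genes, and p-values were adjusted over all of them at 0.05. Each SE is the log2 fold change divided by the square root of F. These SEs are smaller than the authors' and may overstate precision. Shares were compared by exact permutation in SciPy 1.17.1. The steps were tested on simulated counts. Replicate pairs were checked for repeated libraries, and none was found (chi-square 2.44 to 7.94 per degree of freedom).

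Positions, lengths, neighbours and sequences come from RefSeq ASM294v3 and its own annotation, where 6637 of 6986 genes were found by identifier. This is not the build of the counting, and no position was carried between builds. Named genes were the members, called genes of the lists, ste11, the mating type genes, adjacent or overlapping genes and nearest profiles. Members and lists were chosen with earlier results of these data known, and the ratios between genes and the motif search were added after the values were seen. Alternatives were RLE, upper quartile and library size scaling, DESeq2 1.42.0, limma-voom 3.58.1, no filter, a filter of 50 counts throughout a genotype, a replicate block and each library left out in turn.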

Additional observations from a re-analysis of the deposited data

How the results depend on the processing

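Members other than mfm3 kept their direction and their call under every alternative that could fit them. The lowest and highest log2 fold changes over 14 alternatives were 2.34 and 2.58 for mfm2, -3.12 and -2.87 for mam2, 0.66 and 0.88 for mam3, 0.34 and 0.54 for sxa2 and -0.44 and -0.22 for mam1. For mfm1 they were 2.04 and 2.82 over 13. The call of mfm3 was lost with DESeq2 (0.68), and leaving out each library gave 0.39 to 0.99. A minimum of 50 counts left mfm1 and mfm3 untested, so 3 members were called higher. Over all genes 4766 were called, 4467 with DESeq2 and 4547 to 4727 without 1 library. The calls were higher in 52.3% with TMM and in 67.0% with library size only, which moved the median over all genes to 0.19, from 0.02 with TMM. Relative to that median mam1 (-0.22) remained lower. The share differences of mfm2 (9.18 to 18.6 points without 1 library) and mfm3 (-22.3 to -13.8) kept their sign, also per kilobase, while that of mfm1 ran from -0.285 to 4.65 points.

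With the replicate block 4753 genes were called, and no call of a member changed. Deviations of same-numbered libraries correlated at 0.0041, -0.0029 and 0.0695, and only the replicate 3 libraries correlated best with their own number, so the numbers were not taken to pair the libraries. Counts of mfm1 and mfm3 below 50 limit what can be said of them.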
